A study of Mus musculus with 6 samples.

Results

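The Serpin genes encode serine protease inhibitors and their relatives, and their mRNAs were compared here between alveolar type II cells of Stat3Δ/Δ mice and of littermate controls. The members are the probe sets of the MOE430 array whose annotation names a single gene with a symbol that begins with Serpin. There were 56 such probe sets for 40 genes, out of 34945 probe sets for 18193 genes that the annotation names alone. A further 3 probe sets name several Serpin genes each and were left out of the counts.

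Alveolar type II cells were isolated with collagenase and differential plating from mice 8 weeks of age, with 3 mice contributing to a pool and a pool to an array. There were 3 arrays of Stat3Δ/Δ pools and 3 of control pools. The Stat3Δ/Δ mice carry the SP-C-rtTA and (tetO)7CMV-Cre transgenes on a Stat3flx/flx background, and doxycycline in the food of the dams switched on Cre in cells that use the SP-C promoter, so that the deletion is limited to the respiratory epithelium. The control pools carry the same pair of transgenes and no floxed allele by their source name, whereas the study's methods describe non-deleted littermates that carry Stat3flx/flx with a transgene; the description field gives the triple-transgenic line for all pools, and the exact control genotype could not be settled. According to the methods, type II cells made up most of each isolate, and leftover alveolar macrophages were the chief contaminant. The methods report no difference between the groups in purity, judged with a Papanicolaou stain, or in type II cell number.

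A serpin inhibits a protease by offering it a reactive loop as bait. Once the loop is cut, the serpin changes shape with the protease still bound and both are inactivated, so each molecule works a single time. In the lung the balance of secreted serpins against neutrophil proteases protects the alveolar wall, and inherited lack of alpha-1 antitrypsin is a known cause of emphysema in humans. Clade B serpins stay mainly inside the cell, where they guard it against proteases that leak from granules or lysosomes. A few family members inhibit nothing and act as hormone carriers or as chaperones. Several antiprotease serpins of the liver belong to the acute-phase proteins, many of which are induced through STAT3.

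The values are linear signals, which the authors scaled on each array to a common trimmed mean. The tests used limma over 45037 probe sets, on quantile normalized values of log2(signal + 69.9). A log2 fold change is Stat3Δ/Δ minus control on that scale, where adding 69.9 shrinks the differences of dim genes. Each gene is represented by its brightest probe set, and the adjusted p is the Benjamini-Hochberg value over all probe sets. A gene was counted as higher or lower when its unadjusted p was 0.05 or less and its fold 1.5 or more, and as passing the FDR at 10%. The p-values measure the spread between pools of 3 mice each.

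The targeted gene had 4 probe sets, and the brightest gave signals of 26284.7, 20127.5 and 25650.1 in Stat3Δ/Δ pools 1 to 3, against 49488.8, 41544.1 and 35080.1 in control pools 1 to 3. Its log2 fold change was -0.71 (SE 0.26, adjusted p = 0.532 from limma). The 4 probe sets split in sign: the others gave -0.80 (SE 0.25), with every Stat3Δ/Δ pool below every control pool, -0.046 (SE 0.35) and 0.60 (SE 0.29), the last 2 with overlap. The last 2 were dimmer, at signals of 627.4 to 1383.9 and 433.7 to 1207.0 over all pools, against 7633.3 to 17857.9 for the probe set at -0.80. The paper cites earlier work that found Stat3 mRNA and protein strongly reduced in type II cells of these mice. The 10 type II cell markers measured had a median log2 fold change of -0.032, and all 10 had a mean signal at or above the 40th percentile of all probe sets. Of these, 7 lay below 0 and 3 above, and 1 was counted as lower without the FDR, beside 5.54% of all genes. It was Abca3, at -0.73 (SE 0.25, adjusted p = 0.526 from limma), with no overlap between the groups. Slc34a2, at -0.14 (SE 0.23), also lay lower with no overlap. In bulk RNA of this kind, fewer cells of a type and less RNA per cell cannot be told apart. The titles of Stat3Δ/Δ pools 1 and 2 and of control pool 3 share a leading number that the sources do not explain, and differences within these 3 arrays are given as values within the shared number. The log2 ratio of 3' to 5' signal was 0.34 to 0.42 for Actb in Stat3Δ/Δ pools and 0.47 to 0.81 in control pools, and for Gapdh it was -0.49 to -0.30 and -0.24 to 0.27. The part of RNA integrity in the results was not tested.

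Among the 40 Serpin genes, Serping1, the C1 inhibitor of complement and kallikrein, was lower in Stat3Δ/Δ cells and Serpina5, the protein C inhibitor, was higher. These were the only members past the p and fold thresholds, and neither passed the FDR. The counts of 1 higher and 1 lower of 40 stand beside 2.15% of all genes higher and 5.54% lower. No Serpin probe set passed the FDR (lowest adjusted p = 0.516 from limma), with 2 of 56 at an unadjusted p of at most 0.05; 0.00222% of all 45037 probe sets passed it as higher and 0% as lower. With p adjusted over the 18193 genes in place of all probe sets, 0.011% of genes passed as higher and 0% as lower. Of the 56 probe sets, 1 was higher and 1 lower without the FDR, beside 4.14% and 4.22% of all probe sets, and 3 lay higher and 3 lower with no overlap between the groups, beside 5.99% and 7.66%. The median log2 fold change of the 40 genes was 0.037, with 22 above 0 and 18 below. The median of all genes was -0.085.

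**Figure D1:**
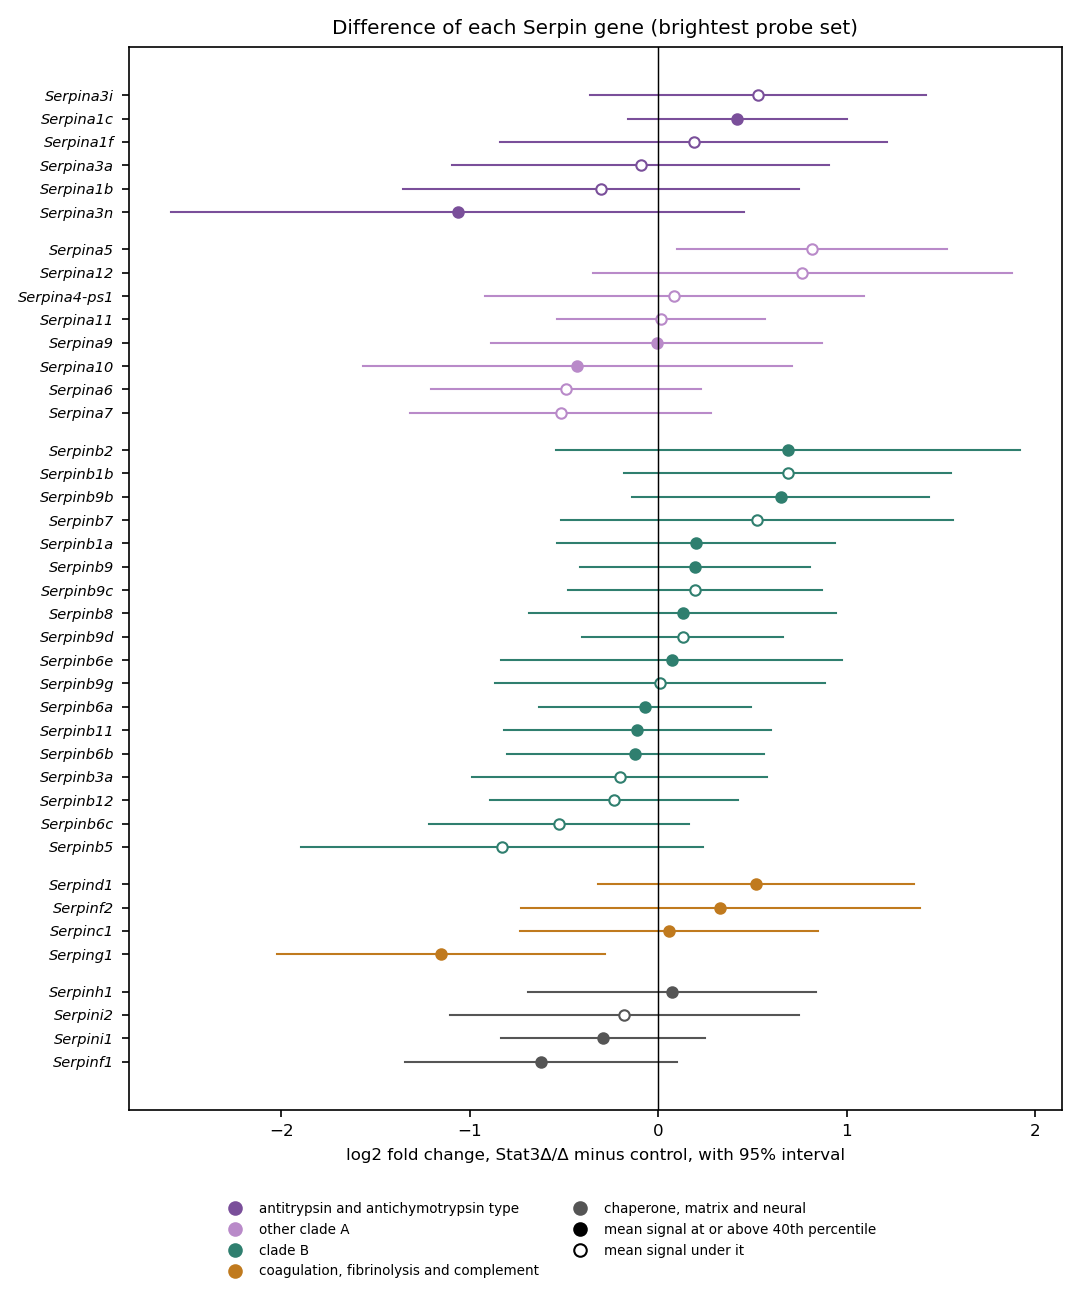
Log2 fold change of each of the 40 Serpin genes by its brightest probe set (x axis, Stat3Δ/Δ minus control, log2(signal + 69.9) scale), with its 95% interval from limma as a line, grouped by role; open symbols have a mean signal under the 40th percentile of all probe sets. The intervals of 38 genes cross 0, and those of Serping1 (lower) and Serpina5 (higher) do not.

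The precision differed between members. Standard errors ran from 0.23 to 0.66 on the log2 scale. For 17 of the 40 genes the 95% interval lay within 1 log2 unit of 0 on both sides, and 11 of these had a mean signal at or above the 40th percentile. Of the 40 brightest probe sets, 20 lay at or above that percentile and 20 under it. The 20 brighter genes had a median of 0.065, beside -0.091 for the 13174 genes of that range in all, and the 20 dim genes had 0.012, beside -0.070 for 5019. Many dim members gave signals of a few units on some arrays, and the table holds no detection calls.

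Serping1 encodes the secreted inhibitor of C1r, C1s, plasma kallikrein and factor XIIa. Its signal was 992.8, 1225.3 and 1057.2 in Stat3Δ/Δ pools 1 to 3, against 3002.4, 3535.7 and 1389.0 in control pools 1 to 3. Every Stat3Δ/Δ pool lay below every control pool, but control pool 3 lay much closer to the Stat3Δ/Δ pools than to the other controls. The log2 fold change was -1.15 (SE 0.38, 95% interval -2.02 to -0.28, unadjusted p = 0.016, adjusted p = 0.516 from limma). Within the shared number it was -0.30, and a fit with that number as a fixed block gave -0.31. Each other number holds a single group, so both values rest on the same arrays, with control pool 3 as the only control. Without control pool 3 the log2 fold change of Serping1 was -1.58, and the count of lower Serpin genes was then 5, beside 6.63% of all genes. With any of Stat3Δ/Δ pool 1, control pool 1 and control pool 2 left out it no longer passed, with values of -1.07, -0.97 and -0.89. The call therefore rested on each of these 3 pools.

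Complement C1s, a protease that Serping1 inactivates, was also lower, and its control pool 3 again lay nearest to the Stat3Δ/Δ pools. C1s1 averaged 153.1 ± 42.3 in Stat3Δ/Δ pools and 547.4 ± 214.7 in control pools (SD, n = 3 each), a log2 fold change of -1.53 (SE 0.36, adjusted p = 0.456 from limma) and -0.84 within the shared number. C1ra, its partner in the C1 complex, averaged 1448 ± 319.6 in Stat3Δ/Δ pools and 1944 ± 204.6 in control pools (SD, n = 3 each), with a log2 fold change of -0.44 (SE 0.28).

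Serping1 and Serpinf1 are genes of stromal cells as well as of epithelium, and markers of stromal and airway cells were therefore set beside them. Over all genes, 5.54% were counted as lower and 2.15% as higher, with a median of -0.085. Of 13 fibroblast markers measured, 10 lay below 0, 6 were counted as lower without the FDR and 0 as higher, and their median was -0.70. The other 3 lay above 0, Pdgfra at 0.69, Tcf21 at 0.38 and Fn1 at 0.58, and for Fn1 every Stat3Δ/Δ pool lay above every control pool. The summed signal of these markers ranged from 12820 to 21500 over Stat3Δ/Δ pools and from 23210 to 41220 over control pools. The microfibril gene Mfap4 was the only fibroblast marker with a mean signal under the 20th percentile of all signals. All 7 mesothelial markers lay below 0, with a median of -0.83 and 3 counted as lower. Their summed signal ranged from 26200 to 42530 over Stat3Δ/Δ pools and from 39390 to 54480 over control pools, which overlap. Within the shared number the medians were -0.16 for fibroblast and -1.07 for mesothelial markers. Of 8 ciliated cell markers, 7 lay below 0 and 4 were counted as lower, with a median of -0.65, and in control pool 3 their median deviation from the control mean was -0.45 on the log2 scale. Their summed signal ranged from 32980 to 47350 over Stat3Δ/Δ pools and from 42190 to 80610 over control pools. Of 7 airway secretory markers, 6 lay below 0 and 2 were counted as lower, with a median of -0.42 and summed signals of 319500 to 455400 over Stat3Δ/Δ pools and 425700 to 532900 over control pools. No marker of these lists but Mfap4 had a mean signal under the 20th percentile. The part of these cells in the differences of Serping1 and Serpinf1 was not tested.

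**Figure D2:**
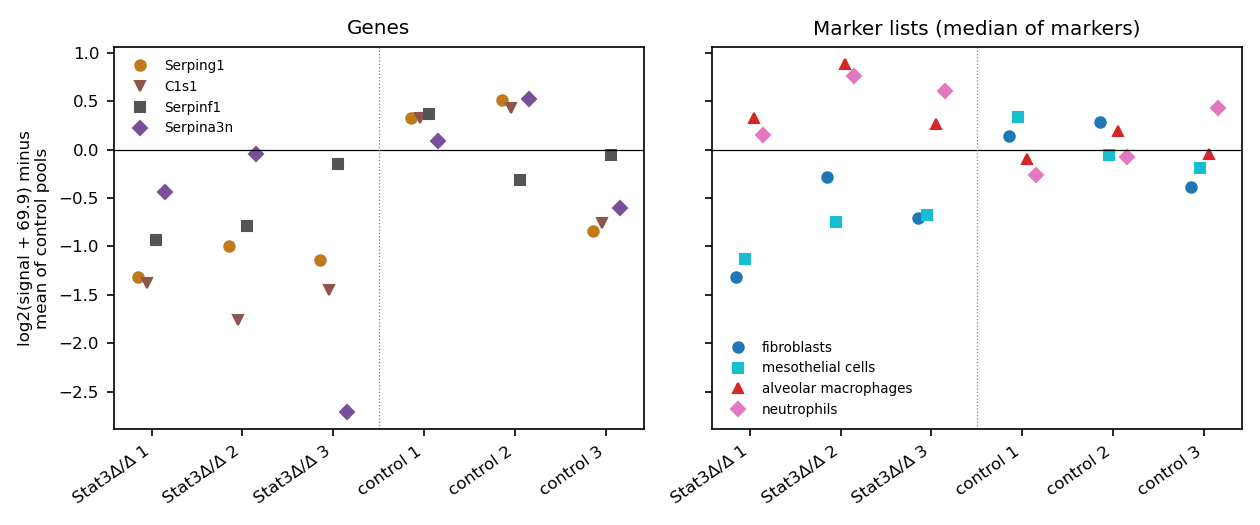
Log2(signal + 69.9) of each pool minus the mean of the control pools (y axis), for 4 genes on the left and as the median over the markers of 4 cell types on the right; pools are along the x axis, with Stat3Δ/Δ pools left of the dotted line and control pools right of it. Control pool 3 lies below the other controls for Serping1 (-0.84), C1s1 (-0.76) and fibroblast markers (-0.39), and Stat3Δ/Δ pool 3 is far below all others for Serpina3n (-2.71).

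Serpinf1, pigment epithelium-derived factor, is a secreted serpin without protease inhibition that restrains blood vessel growth. Its signal was 3333.0, 3655.3 and 5639.0 in Stat3Δ/Δ pools 1 to 3, against 8417.7, 5089.0 and 6024.8 in control pools 1 to 3. Stat3Δ/Δ pool 3 lay above control pool 2, so the groups overlap. The log2 fold change was -0.62 (SE 0.31, adjusted p = 0.645 from limma), and -0.79 within the shared number. The second probe set gave -0.47. Serpinf1 did not pass the p threshold. It did pass in 3 alternatives, at -0.86 without Stat3Δ/Δ pool 3, at -0.59 with the median signal as pseudocount and at -0.62 with trend and robust moderation (unadjusted p = 0.026, 0.048 and 0.043 from limma).

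Serpinh1, known as HSP47, is the chaperone of collagen in the endoplasmic reticulum. Its signal was 8150.0, 14521.5 and 15846.9 in Stat3Δ/Δ pools 1 to 3, against 16555.8, 11538.9 and 9156.3 in control pools 1 to 3. The groups overlap fully, and the pools of each group differ by more than the group means do. The log2 fold change was 0.072 (SE 0.33, 95% interval -0.69 to 0.84), and the second probe set gave -0.19. Median centring of the arrays gave -0.11 instead. Among the collagen genes whose products it serves, Col1a1 had a log2 fold change of -2.33 (SE 0.58, adjusted p = 0.467 from limma) and Col3a1 of -1.74 (SE 0.41, adjusted p = 0.456 from limma). Both passed the p and fold thresholds without the FDR, and both are on the fibroblast marker list.

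The nervous system serpin Serpini1, an inhibitor of tissue plasminogen activator, gave 279.9, 235.5 and 301.0 in Stat3Δ/Δ pools 1 to 3, against 283.6, 306.4 and 338.4 in control pools 1 to 3. The deposited signals overlap between the groups and the normalized values do not. The log2 fold change was -0.29 (SE 0.24, adjusted p = 0.771 from limma). Its other 2 probe sets, both under the 40th percentile, gave 0.60 and -0.58. The fourth gene of this set, Serpini2, gave -0.18.

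Among the plasma serpins of blood clotting, Serpinc1, or antithrombin, gave 566.4, 247.4 and 239.5 in Stat3Δ/Δ pools 1 to 3, against 349.7, 254.9 and 233.6 in control pools 1 to 3. Only Stat3Δ/Δ pool 1 stood apart, and the log2 fold change was 0.059 (SE 0.34, 95% interval -0.73 to 0.85). Serpind1, heparin cofactor II, had a log2 fold change of 0.52 (SE 0.37) with the highest signal, 3540.0, in Stat3Δ/Δ pool 3. Serpinf2, the alpha-2 antiplasmin, gave 0.33 (SE 0.46). Neither passed the p threshold, and within the shared number Serpind1 was at -0.035 and Serpinf2 at -0.53.

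Serpina5 inhibits activated protein C and other serine proteases. Its signal was 134.0, 113.0 and 44.8 in Stat3Δ/Δ pools 1 to 3, against 9.0, 41.3 and 5.7 in control pools 1 to 3. Every deposited signal of the Stat3Δ/Δ pools lay above every control signal, with Stat3Δ/Δ pool 3 only just above control pool 2, and after quantile normalization these pools overlap. The log2 fold change was 0.82 (SE 0.31, 95% interval 0.098 to 1.53, unadjusted p = 0.0305, adjusted p = 0.553 from limma). Within the shared number it was 1.35. The mean signal over all 6 arrays was 57.97, under the pseudocount of 69.9, which is the 20th percentile of all signals. The size therefore depends on the pseudocount, from 0.26 with the median signal as pseudocount to 2.61 with none. Without Stat3Δ/Δ pool 1 or 2, or control pool 1 or 3, it no longer passed, with values of 0.68, 0.69, 0.75 and 0.70.

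**Figure D3:**
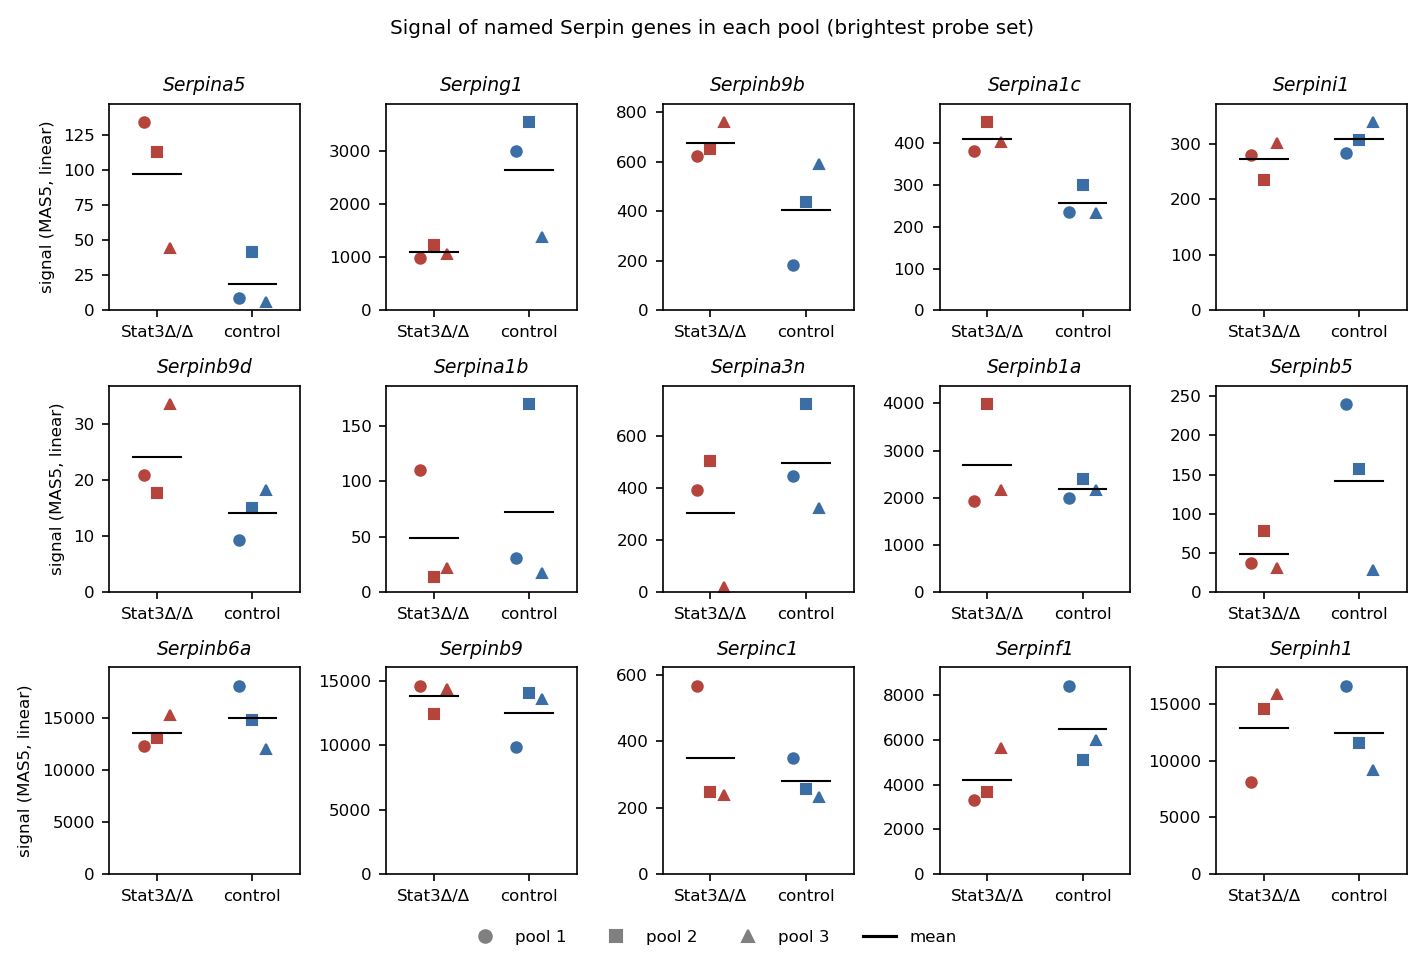
Deposited signal (y axis, linear, from 0 in each panel) of 15 Serpin genes in each pool, with Stat3Δ/Δ pools in red and control pools in blue, a symbol for each pool number and a line at the mean. For Serping1 the Stat3Δ/Δ pools lie between 992.8 and 1225.3, below all control pools, and for Serpina3n a single Stat3Δ/Δ pool at 18.2 lies far below the others.

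The alpha-1 antitrypsins are the main inhibitors of neutrophil elastase in plasma, and the mouse has several near-identical copies that probes can share. Serpina1c gave 380.8, 449.5 and 403.1 in Stat3Δ/Δ pools 1 to 3, against 236.5, 298.9 and 232.4 in control pools 1 to 3. The groups do not overlap, and the log2 fold change was 0.42 (SE 0.25, adjusted p = 0.697 from limma), short of the fold threshold of 1.5. It was 0.65 within the shared number and 0.30 to 0.52 with a pool left out. Over all genes, 4.23% had no overlap with Stat3Δ/Δ higher and 10.2% with Stat3Δ/Δ lower, while among the 40 members 3 and 2 did. Both probe sets of Serpina1b were dim, at a signal of 110.3, 13.5 and 21.4 in Stat3Δ/Δ pools 1 to 3 for the brighter, against 30.4, 169.3 and 17.1 in control pools 1 to 3. They gave -0.30 each. The probe set shared by Serpina1d and Serpina1a read 3.0 to 18.9 in Stat3Δ/Δ pools and 3.0 to 25.9 in control pools. The probe set shared by Serpina1e, Serpina1c and Serpina1b read 5.0 to 32.6 in Stat3Δ/Δ pools and 2.1 to 9.3 in control pools. The copies cannot be told apart with such probes.

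The antichymotrypsin relatives of clade A include Serpina3n, a secreted inhibitor of granzyme B, elastase and cathepsin G that is an acute-phase gene in the mouse. Its signal was 394.7, 504.2 and 18.2 in Stat3Δ/Δ pools 1 to 3, against 449.3, 724.1 and 324.2 in control pools 1 to 3. The groups overlap, and Stat3Δ/Δ pool 3 alone lies far below the rest. The log2 fold change was -1.06 (SE 0.66, the largest standard error among the members, adjusted p = 0.706 from limma). Within the shared number it was 0.37, and without Stat3Δ/Δ pool 3 it was -0.24. Serpina3i and Serpina3a, both dim, gave 0.53 and -0.092.

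The other clade A genes gave no further call. The hormone carriers Serpina6, for corticosteroids, and Serpina7, for thyroid hormone, had log2 fold changes of -0.49 and -0.52. Serpina10, the inhibitor of factor Xa that works with protein Z, gave -0.43 (SE 0.50), with signals of 360.5, 776.7 and 1357.6 in Stat3Δ/Δ pools 1 to 3, against 1118.5, 1182.0 and 664.7 in control pools 1 to 3, which overlap. Serpina12, called vaspin and made by fat tissue, gave 0.77 (SE 0.49), with 277.7 in Stat3Δ/Δ pool 1 but 16.2 in Stat3Δ/Δ pool 2. Serpina9, Serpina11 and the pseudogene Serpina4-ps1 lay between -0.0071 and 0.085.

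Clade B was the largest set, with 18 genes, of which 11 lay above 0 and 7 below. Their median was 0.10, and none passed the p and fold thresholds in either direction. Serpinb6a, a cytosolic serpin whose human counterpart inhibits cathepsin G, gave 12320.9, 13106.3 and 15339.4 in Stat3Δ/Δ pools 1 to 3, against 18088.7, 14852.0 and 12003.6 in control pools 1 to 3. The groups overlap fully, and the log2 fold change was -0.069 (SE 0.25, 95% interval -0.63 to 0.49). Its neighbour Serpinb6b gave -0.12 (SE 0.30), with the interval from -0.80 to 0.56.

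Serpinb9 is the inhibitor of granzyme B that protects cells from cytotoxic lymphocytes. It gave 14566.7, 12411.0 and 14333.4 in Stat3Δ/Δ pools 1 to 3, against 9817.5, 14021.2 and 13536.5 in control pools 1 to 3. Only control pool 1 was lower than the rest, and the log2 fold change was 0.20 (SE 0.27, 95% interval -0.42 to 0.81). The second probe set gave 0.31. Its relative Serpinb9b gave 623.8, 652.1 and 759.2 in Stat3Δ/Δ pools 1 to 3, against 182.2, 439.0 and 593.4 in control pools 1 to 3. All Stat3Δ/Δ pools lay above all control pools, with a log2 fold change of 0.65 (SE 0.34, adjusted p = 0.656 from limma). Within the shared number the difference was 0.085, since control pool 3 is the control closest to the Stat3Δ/Δ pools, and without that pool it was 0.87. Serpinb9d, also free of overlap after normalization, was dim, with 17.7 to 33.6 in Stat3Δ/Δ pools and 9.4 to 18.2 in control pools and a log2 fold change of 0.13. Serpinb9c and Serpinb9g gave 0.20 and 0.0092. Of the proteases of cytotoxic cells, Gzma was counted as higher at 1.04 (SE 0.43, adjusted p = 0.576 from limma), and Gzmb had 0.85 (SE 0.47) and did not pass the p threshold. Gzma gave 0.74 and Gzmb -0.23 within the shared number. Both are also on the T and NK lymphocyte marker list, of whose 11 markers 6 lay above 0. Of these 11, 2 were counted as higher, beside 2.15% of all genes, namely Gzma and the NK cell receptor gene Klrd1 at 1.02 (SE 0.26). The summed signal of that list was 20710 to 31170 in Stat3Δ/Δ pools and 5818 to 35980 in control pools, and no marker had a mean under the 20th percentile. The part of these cells in the serpin values was not tested.

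Serpinb1a inhibits neutrophil elastase, cathepsin G and proteinase 3 within leukocytes and epithelium. Its signal was 1922.1, 3978.9 and 2158.9 in Stat3Δ/Δ pools 1 to 3, against 1995.6, 2395.2 and 2165.1 in control pools 1 to 3. Stat3Δ/Δ pool 2 alone stood above the others, and the log2 fold change was 0.20 (SE 0.32, adjusted p = 0.894 from limma). Its sign turned without that pool, to -0.11. The second probe set gave 0.66 (SE 0.41). Within the shared number the brightest probe set gave 0.34 and the second 1.25. In Stat3Δ/Δ pool 2 the median of 11 alveolar macrophage markers was 0.88 above the control mean on the log2 scale, against 0.33 and 0.27 in Stat3Δ/Δ pools 1 and 3. The summed signal of these markers was 168900 to 221300 in Stat3Δ/Δ pools and 172100 to 209400 in control pools. Of the 11, 9 had a log2 fold change above 0, and none had a mean signal under the 20th percentile. Counted as higher were 3 and as lower 0, beside 2.15% and 5.54% of all genes. Without overlap 5 lay higher and 1 lower, beside 4.23% and 10.2%. Neutrophil markers, of which 5 of 8 lay above 0 with a median of 0.43, had a summed signal of 31300 to 36970 in Stat3Δ/Δ pools and 19740 to 24660 in control pools. Counted as higher were 3 of these 8 and as lower 0, namely S100a8 at 1.68, S100a9 at 1.88 and Csf3r at 0.91, all without overlap. The 3 below 0 were Ltf at -0.87, Camp at -0.060 and Cxcr2 at -0.0050. Within the shared number the neutrophil median was 0.19. The part of these cells in Serpinb1a was not tested.

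Serpinb2, plasminogen activator inhibitor 2, which macrophages and stressed epithelium make, gave 296.4, 917.8 and 1095.6 in Stat3Δ/Δ pools 1 to 3, against 208.1, 672.7 and 324.8 in control pools 1 to 3. The groups overlap, and the log2 fold change was 0.69 (SE 0.54, adjusted p = 0.757 from limma). Without Stat3Δ/Δ pool 1 it was the 1 member counted as higher, beside 1.72% of all genes. Serpinb8, an inhibitor of furin in humans, gave 0.13 and 0.060 with its 2 probe sets. The remaining clade B genes, namely Serpinb11, Serpinb12, Serpinb1b, Serpinb3a, Serpinb6c, Serpinb6e and Serpinb7, ran from -0.53 to 0.69.

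Serpinb5, known as maspin, is a non-inhibitory serpin of epithelial cells with 4 probe sets, all dim. The brightest gave 37.2, 78.2 and 31.5 in Stat3Δ/Δ pools 1 to 3, against 239.7, 157.8 and 28.4 in control pools 1 to 3, with overlap through control pool 3. Its log2 fold change was -0.83 (SE 0.46, adjusted p = 0.677 from limma), and within the shared number it was 0.35. The other 3 gave 0.60, -0.59 and -0.17. No direction can be given for Serpinb5.

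Several probe sets were present for 12 genes, and their log2 fold changes had the same sign in 9 of them. The signs were split for Serpinb5, Serpinh1 and Serpini1. The highest and lowest log2 fold changes of a gene lay up to 1.43 apart, for Serpinb5, and 1.18 apart for Serpini1. For the 5 genes whose probe sets all lay at or above the 40th percentile, Serpinb1a, Serpinb8, Serpinb9, Serpinf1 and Serpinh1, they lay at most 0.46 apart. Of the 56 probe sets, 8 carry the suffix x, which marks probes that match other sequences too, 4 the suffix s for sharing and 5 the suffix a for transcripts of 1 gene.

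**Figure D4:**
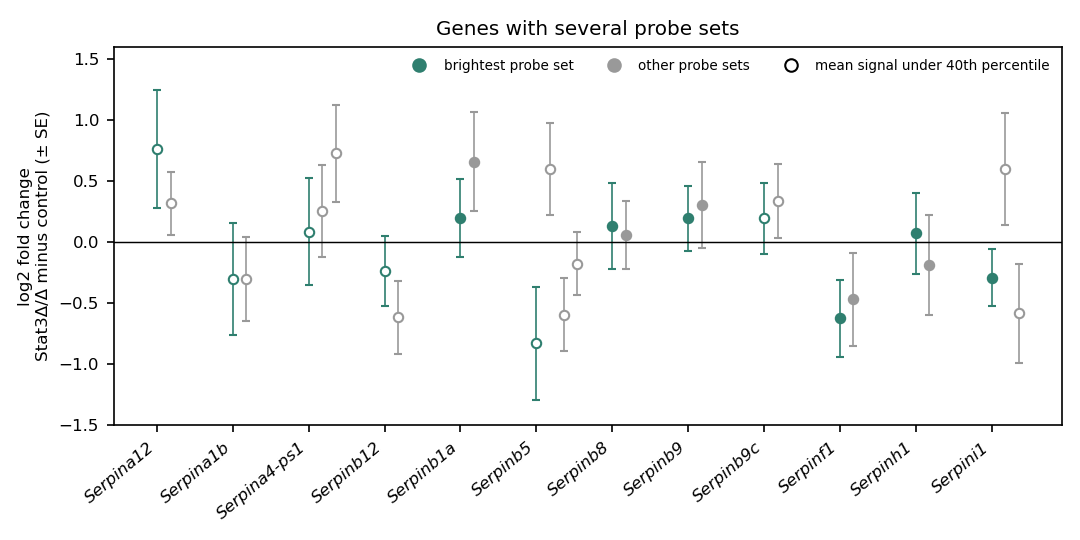
Log2 fold change (y axis, Stat3Δ/Δ minus control) with its standard error for every probe set of the 12 Serpin genes that have several (x axis); the brightest probe set of a gene is green and the others grey, and open symbols are under the 40th percentile of signal. The probe sets of Serpinb5 run from -0.83 to 0.60, whereas those of Serpinf1 lie at -0.62 and -0.47.

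Most members lie on 3 chromosomes, 13 on chromosome 12 (all clade A), 11 on chromosome 13 (all clade B) and 8 on chromosome 1 (clade B and Serpinc1, which lies far from the others there). The medians were 0.015 for chromosome 12, 0.13 for chromosome 13 and -0.026 for chromosome 1, and the range on each chromosome was wider than the distance between the medians.

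The STAT family binds the palindrome TTCNNNGAA, where N is any base, which reads the same on both strands. It was searched in the RefSeq promoters of GRCm38.p6, from 250 bases before to 50 after each start. Of 40 members, 34 genes had a promoter in that set, with 40 starts. Serping1, the member counted as lower, had none there and was not searched. The STAT palindrome was found in 8 of these 40, or 20%, from 6 genes, beside 8.3% of all 32851 promoters. Starts of a gene overlap and share sites, so these are descriptions. The STAT matches are shown in capitals with the gene they belong to, since STAT3 is the factor deleted:
Serpinb2: TTCCAAGAA
Serpina1f: TTCAGAGAA
Serpina11: TTCCAGGAA
Serpina3i: TTCCCAGAA
Serpinb9c: TTCCCTGAA
Serpinb6a: TTCCGGGAA

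The log2 fold changes of these 6 genes were 0.69, 0.19, 0.015, 0.53, 0.20 and -0.069, and none passed the p threshold. The promoter of Serpinb6a held the palindrome at 2 places, from -77 to -69 and from 20 to 28 counted from the start base as 0. It is shown because it holds more matches (capitals) than any other member promoter, at chr13:34002745-34003044 on the minus strand of GRCm38.p6:
Serpinb6a: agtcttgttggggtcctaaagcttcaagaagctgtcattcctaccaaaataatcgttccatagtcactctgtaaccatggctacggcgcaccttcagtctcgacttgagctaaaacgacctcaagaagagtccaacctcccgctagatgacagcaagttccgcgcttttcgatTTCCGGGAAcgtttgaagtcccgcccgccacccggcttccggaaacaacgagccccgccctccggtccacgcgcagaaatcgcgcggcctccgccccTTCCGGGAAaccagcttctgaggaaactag

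The promoter of Serpina5, the member counted as higher, holds no match in this window, at chr12:104100863-104101162 on the plus strand:
Serpina5: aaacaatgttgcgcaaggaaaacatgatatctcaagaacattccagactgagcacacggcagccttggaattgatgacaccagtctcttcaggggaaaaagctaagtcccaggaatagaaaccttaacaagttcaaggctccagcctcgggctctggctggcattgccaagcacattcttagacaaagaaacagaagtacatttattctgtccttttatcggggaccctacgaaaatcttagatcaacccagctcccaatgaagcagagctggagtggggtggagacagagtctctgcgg

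Genes that work with serpins were read from lists chosen with the members. Of 31 target proteases, 2 were counted as higher and 3 as lower, beside 2.15% and 5.54% of all genes. Their median was -0.059, beside -0.085 for all genes. The 3 lower were C1s1 and the epithelial membrane proteases St14, or matriptase, at -1.01 (SE 0.34) and Prss8, or prostasin, at -0.62 (SE 0.25). Prss8 averaged 9101 ± 1472 in Stat3Δ/Δ pools and 14160 ± 953.9 in control pools (SD, n = 3 each), and St14 averaged 4638 ± 1601 in Stat3Δ/Δ pools and 9382 ± 2688 in control pools (SD, n = 3 each). Within the shared number St14 gave -0.96 and Prss8 -0.81. Both are proteases that the membrane inhibitors Spint1 and Spint2 restrain, and these gave -0.50 (SE 0.29) and -0.40 (SE 0.24) without passing the p threshold. The higher 2 were Gzma and the cysteine protease Ctsk at 1.12 (SE 0.34), a gene that is also on the macrophage marker list. Adjusted p of the 5 lay between 0.456 and 0.576 in limma.

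Of 28 protease inhibitors outside the family, 1 was counted as higher and 1 as lower, beside 2.15% and 5.54% of all genes. Their median was -0.18, beside -0.085 for all genes. Slpi, the leukocyte protease inhibitor of airway secretions, averaged 10500 ± 106.4 in Stat3Δ/Δ pools and 11390 ± 2136 in control pools (SD, n = 3 each), with a log2 fold change of -0.076 (SE 0.26). Wfdc1, a secreted whey acidic protein inhibitor, was lower at -0.74 (SE 0.31, adjusted p = 0.577 from limma). Mug1, an alpha-macroglobulin of mouse plasma, was higher at 1.51 (SE 0.35, adjusted p = 0.456 from limma), with a mean of 245.1 ± 38.3 in Stat3Δ/Δ pools and 42.9 ± 53.5 in control pools (SD, n = 3 each). Of 14 serpin receptors and cofactors, 0 passed in either direction, beside 2.15% of all genes higher and 5.54% lower. Lrp1, the receptor that clears serpin-protease complexes, gave -0.24 (SE 0.24).

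Among 19 genes known to be induced through STAT3, 4 were counted as lower and 3 as higher, beside 5.54% and 2.15% of all genes. Their median was -0.28, beside -0.085 for all genes. Osmr, the oncostatin M receptor, gave -1.10 (SE 0.26) and the metalloreductase Steap4 -1.22 (SE 0.33), both lower on every Stat3Δ/Δ array than on any control array. The fibrinogen chains Fgg and Fga, acute-phase products like several serpins, were counted as higher, at 2.39 (SE 0.58) and 2.24 (SE 0.57). In Stat3Δ/Δ pools Fgg averaged 1924 ± 1301 and Fga 1646 ± 1155 (SD, n = 3 each). The chain Fgb gave -0.068 (SE 0.23), lower with no overlap, at mean signals of 9.4 in Stat3Δ/Δ and 12.2 in control pools. It was the only gene of this list with a mean under the 20th percentile of all signals. Adjusted p values of Osmr, Steap4, Fgg and Fga lay between 0.456 and 0.481 in limma.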

How the data were processed

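RNA of alveolar type II cells from 3 Stat3Δ/Δ and 3 control pools of 3 mice was hybridized to MOE430 arrays. The deposited values are linear intensity signals that the authors made with MAS5, Affymetrix's Microarray Suite, and scaled on each array; a 2% trimmed mean of 1500.01 was found on all 6, while quantiles differed. The study's own tests used RMA values, which are not used here. Groups follow the titles.

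Of 45101 probe sets, 64 controls were left out and 45037 tested. The pseudocount, 69.9, is the 20th percentile of all signals. The fit, a group term with empirical Bayes moderation, was run in limma 3.58.1 (R 4.3.3). It was also run on simulated data, with planted changes larger than the difference of any Serpin gene. That run therefore does not show how well differences of the size reported here are recovered. Python 3.11.15 with matplotlib 3.10.9 drew the figures. Precision is limited by having only 3 arrays a group.

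Symbols came from the platform annotation, and updating them through gene identifiers changed no member. Members and lists were chosen with earlier results of these data known. Pool values are given for members past the thresholds, for up to 12 more without overlap and for a fixed set of well-known serpins; other members with pool values, Serpina10 and Serpinb2, were chosen after their values were seen. Up to 4 genes were named from each list by size of change among those with an unadjusted p of at most 0.05, and others after their values were seen. Alternatives changed the pseudocount, normalization, filter, test, variance model, array weights, blocks, the arrays used and the choice of probe set.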

Additional observations from a re-analysis of the deposited data

How the results depend on the processing

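The count of FDR-passing Serpin probe sets was 0 as reported and in each alternative that gives it, and the median log2 fold change moved by less than the spread between pools, from -0.057 to 0.11. Counts of 1 higher and 1 lower gene became 0 and 2 with the median signal as pseudocount, beside 1.23% and 3.08% of all genes. They became 0 and 0 with the methods' t-test, beside 1.33% and 3.71%. With trend and robust moderation they were 1 and 2, beside 2.26% and 5.75%. The second lower gene was Serpinf1 under both the median pseudocount and the moderation. On the 3 arrays of the shared number, control pool 3 is the only control, so only sizes are given. Serping1 was at -0.30 there and Serpina5 at 1.35. With that number as a fixed block the values rest on the same arrays, and Serping1 was at -0.31 and Serpinb3a at -0.92. A filter on low signal left 20 genes and gave 0 higher and 1 lower, beside 2.3% and 6.31% of all genes kept by it. With a pool left out, higher genes ran from 1 to 2, beside 1.66% to 2.69% of all genes. Lower genes ran from 0 to 5. Leaving out Stat3Δ/Δ pool 1 gave 0 lower genes, beside 3.64% of all genes. Leaving out control pool 1 or 2 also gave 0, beside 3.82% each. Without Stat3Δ/Δ pool 3 there were 2 lower genes, beside 7.34%, and without control pool 3 there were 5, beside 6.63%. The higher gene was not the same: it was Serpina5 only without Stat3Δ/Δ pool 3 or control pool 2, and otherwise Serpinb2 without Stat3Δ/Δ pool 1, Serpina12 without Stat3Δ/Δ pool 2, Serpinb1b and Serpinb7 without control pool 1, and Serpinb9b without control pool 3. Whether the pool numbers in the titles pair the samples could not be settled. Deviations of same-numbered pools from their group means correlated at -0.084, -0.0088 and -0.24. With 3 pools a group such deviations sum to 0 and constrain the correlations, so these values cannot exclude a pairing. With the replicate block 2 genes were lower, Serpina3n and Serping1, beside 4.27% of all genes, and 1 higher, beside 1.71%.

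Signs turned for some members with small or uneven differences; the cause was not tested. Under the fixed number block, Serpina1b gave 0.44, Serpina3n 0.37, Serpinb5 0.33, Serpinb6a 0.10 and Serpinb9 -0.0034; within the arrays sharing it, Serpina1b gave 0.46, Serpina3n 0.37, Serpinb5 0.35, Serpinb6a 0.095 and Serpinb9 -0.00030. Serpinc1 gave -0.016 with array weights, and Serpinh1 -0.11 with arrays centred on their medians and -0.058 as the mean of its probe sets. With a pool left out, Serpina1b ran from -0.60 to 0.17, Serpinb1a from -0.11 to 0.42, Serpinb6a from -0.18 to 0.030, Serpinc1 from -0.25 to 0.26 and Serpinh1 from -0.088 to 0.36. Serpina1c, Serpinb9b, Serpinf1, Serpini1, Serping1 and Serpina5 kept their sign in every alternative. For 20 of the 40 genes the mean signal lay under the 40th percentile, where differences depend most on the pseudocount by construction.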
